A study of Mus musculus with 6 samples.

Results

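The forkhead genes are a family of transcription factors that share a DNA-binding domain of the winged helix type, and a letter in each symbol marks the subfamily. All rows of the deposited table whose symbol is Fox, a letter from a to s and a single digit were taken, which gave 44 of 49492 rows, and 43 of them are described. RNA was sequenced from embryonic mouse soft palate of stage E14.5, with 3 libraries labelled Dlx5-/- and 3 labelled wild type, here called knockout and control. The posterior part of the palate was dissected whole, so every level is a mean over mesenchyme, epithelium, muscle, vessels and nerve. In such samples fewer cells of a type and less RNA per cell cannot be told apart. The labels do not say how the Dlx5 allele was made or whether the libraries came from separate embryos, and p-values then measure the spread between these libraries, which may be technical.

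Forkhead proteins bind short AT-rich sites, and some, the Foxa proteins first among them, can bind DNA that is packed in chromatin. Several members have known roles in the palate: loss of Foxe1, Foxf2 or Foxc2 in mice gives a cleft palate. Foxd and Foxf genes of facial mesenchyme respond to Hedgehog signals from the epithelium. Foxm1 drives genes of mitosis, Foxo proteins are held in the cytoplasm when insulin signals through Akt, and Foxj1 switches on motile cilia.

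Levels are CPM with TMM scaling, and differences are log2 fold changes of knockout over control from edgeR's quasi-likelihood test, with Benjamini-Hochberg adjustment over all 16218 genes that averaged at least 1 CPM. Library totals ran from 8741020 to 11492409 estimated counts in knockouts and from 6891798 to 11922442 in controls. Rows of ribosomal RNA made up 24.2, 29.0 and 13.0% of the totals in knockout replicates 1, 2 and 3. In control replicates 1, 2 and 3 they made up 22.3, 18.8 and 20.6%. Dlx5 itself had 7, 15 and 17 estimated counts in knockout replicates 1, 2 and 3, against 242, 193 and 113 in control replicates 1, 2 and 3. Knockout replicate 3 stood apart: its mean correlation with the other libraries was 0.959, against 0.970 to 0.976 for each of the others. The mature brain list of 14 genes summed to 1290 CPM in that library, against 245 to 272.5 CPM in the other knockouts and 273 to 333 CPM in the controls. The palatal mesenchyme list of 22 genes summed to 1228 to 1297 CPM in knockouts and 1072 to 1264 CPM in controls. The oral epithelium list of 20 genes summed to 401 to 498 CPM in knockouts and 441 to 704.5 CPM in controls. In that list 7 genes had higher and 13 lower estimates. Its member Epcam was at 34.8 ± 6.46 CPM in knockouts and 36.5 ± 3.78 CPM in controls (SD, n = 3 each).

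Of the 43 forkhead genes, 31 passed the filter on low values and 12 did not. No member passed an adjusted p of 0.05 in edgeR, where 0.00617% of all genes, Dlx5 alone, did. At an unadjusted p under 0.05 edgeR found 5 of the 31 (4 higher and 1 lower in knockouts), where 12.8% of all genes were under it, 5.6% higher and 7.23% lower. With DESeq2 0 of the 28 members given an adjusted p passed, where 3.24% of all genes did, and 4 of the 31 had an unadjusted p under 0.05 in DESeq2, where 10.2% of the genes kept by the filter did. Knockout and control libraries did not overlap for 8 members, 5 higher and 3 lower, or 25.8% of those kept, beside 19.2% of all genes (9.48% higher and 9.71% lower). The median log2 fold change was -0.02 over the 31 members and 0.01 over all genes, with 14 members estimated higher and 17 lower. The median absolute log2 fold change was 0.25 over the members and 0.16 over all genes. Of the kept members, Foxa2, Foxa3 and Foxp3 averaged under 1 CPM in controls and passed the filter through their knockout level alone. Foxa2 and Foxp3 are among the 5 higher members without overlap. Foxa2 is also among the 4 higher members with an unadjusted p under 0.05 in edgeR. The filter could thus add to these counts of higher members, which are not read as a lean upwards. Foxa2, Foxa3 and Foxp3 did not pass a filter of 5 CPM. With that filter edgeR found 3 of 22 members higher and 1 lower at an unadjusted p under 0.05.

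**Figure D1:**
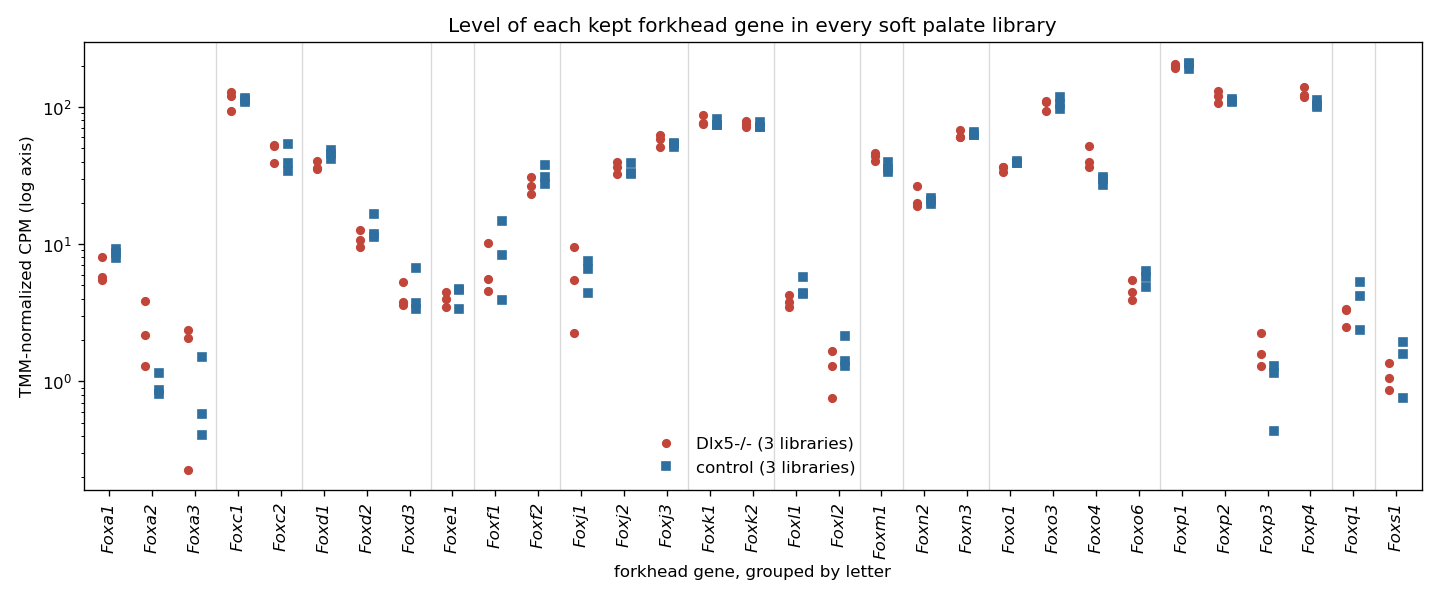
Level of each of the 31 kept forkhead genes in TMM-normalized CPM on a log axis, with 3 knockout libraries (circles) left of 3 control libraries (squares) for each gene. For 15 of the 31 genes the highest library lies within 1.5-fold of the lowest and for 16 it does not, and Foxa2 runs from 1.30 to 3.85 CPM in knockouts and from 0.812 to 1.15 CPM in controls.

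Levels were compared between members per kilobase of merged exons, from GENCODE M21. On that scale Foxp4 was highest, at 25.7 ± 2.20 CPM per kb in knockouts and 21.5 ± 1.34 CPM per kb in controls (SD, n = 3 each). Foxc1 followed at 19.4 ± 3.11 CPM per kb in knockouts and 19.2 ± 0.604 CPM per kb in controls, and Foxc2 at 17.6 ± 2.82 CPM per kb in knockouts and 15.4 ± 3.67 CPM per kb in controls. In knockouts Foxc1 and Foxc2 differed by less than the SD of either. In knockouts Foxp1, Foxk2, Foxo3, Foxo4 and Foxf2 came next, between 11.4 and 14.48 CPM per kb. In controls Foxp1, Foxo3, Foxk2 and Foxf2 came next, between 13.6 and 14.7 CPM per kb, without separating from each other or from Foxc2. There Foxo4 lay lower at 8.42 CPM per kb. The sum over the 43 genes was 212, 212 and 201 CPM per kb in knockout replicates 1, 2 and 3, and 207, 195 and 204.5 CPM per kb in control replicates 1, 2 and 3. Those totals overlap, and the libraries with most and least forkhead RNA differ by little. Foxp4 took 12.4% of this sum in knockouts and 10.6% in controls.

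**Figure D2:**
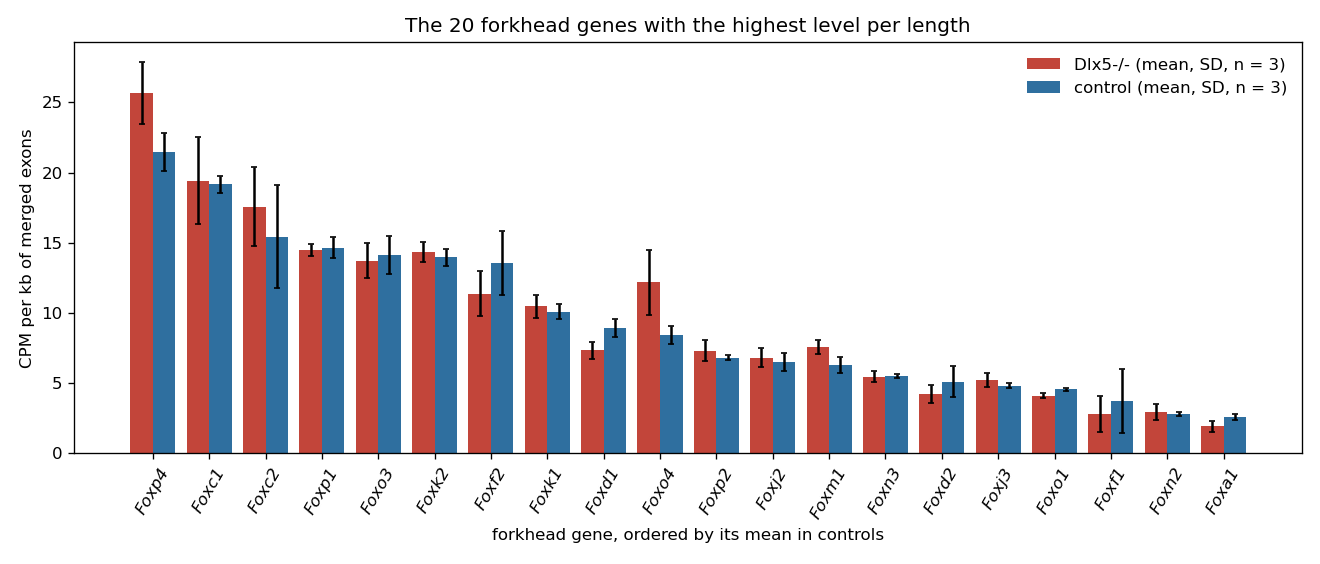
Mean level per kilobase of merged exons with SD (n = 3) for the 20 forkhead genes highest in controls, knockouts left of controls. Foxp4, Foxc1 and Foxc2 have the highest means in both groups, though in controls Foxc2 does not separate from the genes just below it. The bars of Foxo4 (12.2 in knockouts, 8.42 in controls) lie farthest apart relative to their height.

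Upstream sequences from RefSeq (GRCm38.p6) were available for 28 of the 43 members. Those of Foxd1, Foxo1 and Foxp4 are shown because each has 1 start in that table and libraries of its groups that do not overlap, in either direction. Each window holds the 250 bases before the start, 5′ to 3′ on the gene's strand, and capitals mark TAATT or its reverse complement AATTA, the core that Dlx and many other homeodomain proteins bind.
Foxd1 (chr13:98353995-98354244, plus strand): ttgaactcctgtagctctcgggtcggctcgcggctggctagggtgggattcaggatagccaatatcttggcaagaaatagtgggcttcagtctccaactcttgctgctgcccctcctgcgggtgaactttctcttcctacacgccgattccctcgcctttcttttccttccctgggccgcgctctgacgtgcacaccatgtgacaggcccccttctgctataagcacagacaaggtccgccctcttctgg
Foxo1 (chr3:52268087-52268336, plus strand): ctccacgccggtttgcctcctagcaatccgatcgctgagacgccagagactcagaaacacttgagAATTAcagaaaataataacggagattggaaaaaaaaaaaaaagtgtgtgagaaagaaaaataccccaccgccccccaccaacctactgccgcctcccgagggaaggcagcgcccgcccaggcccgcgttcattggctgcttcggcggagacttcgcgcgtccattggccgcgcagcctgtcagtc
Foxp4 (chr17:47924633-47924882, minus strand): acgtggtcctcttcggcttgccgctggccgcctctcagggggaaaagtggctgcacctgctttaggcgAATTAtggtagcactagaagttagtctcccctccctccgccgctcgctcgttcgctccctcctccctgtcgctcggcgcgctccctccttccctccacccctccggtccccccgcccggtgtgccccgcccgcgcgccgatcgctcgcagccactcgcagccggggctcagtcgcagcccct
The Foxd1 window has no match. Foxo1, lower in every knockout library, and Foxp4, higher in every knockout library, each have 1, beginning at position -185 and -182 from the start. The 28 members have 33 windows, of which 8 held a match (24.2%), and 25.03% of all 32851 windows of this length did. The forkhead core TGTTTA or its reverse complement TAAACA, which does not overlap TAATT, was found in 5 of the 33 windows (15.2%), which belong to 3 members, in none of the 3 windows shown, and in 12.03% of all windows. A match is a string of letters and not a measured binding site.

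The Foxo genes are effectors of insulin and growth factor signalling, and among them Foxo4 (chromosome X, 101254528 to 101260873, plus strand, GRCm38) had the smallest p of the family. It measured 36.4, 51.5 and 39.5 CPM in knockout replicates 1, 2 and 3, against 30.01, 31.1 and 26.9 CPM in control replicates 1, 2 and 3. Every knockout library lay above every control, with knockout replicate 2 the highest. On the log2 scale it was higher by 0.53 (SE 0.14; 95% confidence interval 0.21 to 0.85), and the adjusted p of 0.151 (edgeR) missed the threshold. Without knockout replicate 2 it was 0.36, the low end of a range up to 0.63 over libraries left out, and with no filter on low values, where 2.27% of all genes were called, it passed (adjusted p = 0.0176, edgeR).

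Foxo1, the main Foxo protein of metabolic tissue and vessels, measured 36.2, 36.6 and 33.7 CPM in knockouts, against 39.3, 38.8 and 40.5 CPM in controls. All knockout libraries lay below all controls, by a narrow margin (log2 fold change -0.15, SE 0.08; adjusted p = 0.479, edgeR). Reads of Foxo1 may be mixed with those of Gm20402, which covers 674 of its exon bases on the opposite strand, since the use of strand is not given. Foxo3, the most abundant of the 4 per length, measured 108, 111 and 93.3 CPM in knockouts and 106, 97.3 and 118 CPM in controls. The groups overlapped. Foxo3 had a log2 fold change of -0.04 (95% confidence interval -0.27 to 0.20) and Foxo6 of -0.28. Summed over the subfamily the level was 31.8 ± 2.97 CPM per kb in knockouts and 29.3 ± 0.773 CPM per kb in controls (SD, n = 3 each), and the groups overlapped.

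Genes that Foxo proteins switch on were read from a list of 20, of which 18 were kept: 10 had higher and 8 lower estimates, with a median of 0.03, and 0 passed the adjusted threshold. Fbxo32, a ubiquitin ligase of muscle wasting, measured 13.9 ± 3.93 CPM in knockouts and 7.58 ± 1.08 CPM in controls (log2 fold change 0.89; adjusted p = 0.171, edgeR). Of the skeletal muscle genes, 22 of 22 kept had higher estimates, and 0 passed the adjusted threshold. In edgeR 16 were under an unadjusted p of 0.05, where 5.6% of all genes were higher. All 23 muscle genes listed, kept or not, summed to 1759 to 4793 CPM in knockouts and 1418 to 2462 CPM in controls, with overlap. Their part in the Fbxo32 difference was not tested. Of 15 genes of insulin and Akt signalling, 7 had higher and 8 lower estimates, none under an unadjusted p of 0.05 in edgeR and none past the adjusted one, with a median of -0.05.

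Foxp proteins are repressors that pair with each other, and 3 of the 4 were among the more abundant family members. Foxp4, a factor of lung and gut epithelium and of the nervous system in mice, lies on chromosome 17 from 47867133 to 47924645 on the minus strand. It measured 122, 119 and 139 CPM in knockouts, against 113, 100.5 and 104 CPM in controls. All knockout libraries were above all controls, with knockout replicate 3 the highest. The estimate on the log2 scale was 0.26 (SE 0.09, interval 0.05 to 0.47) with an adjusted p of 0.276 in edgeR, and without knockout replicate 3 it was 0.18.

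Foxp1, known from B cells, heart and motor neurons, measured 199 ± 6.08 CPM in knockouts and 202 ± 10.1 CPM in controls (SD, n = 3 each), a log2 fold change of -0.02 with an interval of -0.19 to 0.16. Foxp2, the gene of speech and vocal learning, had a log2 fold change of 0.10 (interval -0.11 to 0.31). Both intervals lie within 0.31 of 0. Foxp3, the master regulator of regulatory T cells, was near the limit of detection with 19, 12 and 21 estimated counts in knockouts and 4, 16 and 8 in controls. In CPM its lowest knockout (1.304) lay just above its highest control (1.299), and the difference did not pass (log2 fold change 0.81, SE 0.50; adjusted p = 0.557, edgeR). The list of 14 T cell and thymus genes summed to 14.8 to 19.1 CPM in knockouts and 14.4 to 21.0 CPM in controls, with overlap. Of its 4 kept genes (Lck, Ccl25, Dll4 and Rag1) 2 had higher and 2 lower estimates, and 0 passed. Of the same list, Il2ra and Ctla4 had no counts, and Cd3e was at 0 in 4 of 6 libraries. Foxp3 shares 853 exon bases with Flicr on the same strand, and further ones with 3 genes on the opposite strand, 590 of them with Ccdc22, so its counts are uncertain.

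Foxm1, which activates genes of the G2 phase and mitosis in dividing cells, measured 40.5, 44.2 and 46.3 CPM in knockouts and 39.9, 35.1 and 33.8 CPM in controls. The groups did not overlap, though knockout replicate 1 and control replicate 1 lay close. The estimate on the log2 scale was 0.27 (SE 0.10, interval 0.04 to 0.49, adjusted p = 0.2996 in edgeR), and it ran from 0.22 to 0.34 over libraries left out. Foxm1 lies on chromosome 6 from 128362967 to 128376146.

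Of 20 mitotic genes known as Foxm1 targets, 19 had higher and 1 had a lower estimate, with a median of 0.26 beside 0.01 over all genes. None passed the adjusted threshold in edgeR. An unadjusted p under 0.05 was found for 11, all higher, where 5.6% of all genes were higher under it. The list was written with earlier results on cell division genes known, so its direction is no independent evidence. Ube2c, which tags mitotic proteins for destruction, measured 65.9 ± 0.512 CPM in knockouts and 47.4 ± 1.94 CPM in controls (log2 fold change 0.48; adjusted p = 0.0549, edgeR). Kif20a, a kinesin of cytokinesis, measured 46.5 ± 2.84 CPM in knockouts and 35.2 ± 1.53 CPM in controls (0.40; adjusted p = 0.0914, edgeR). The summed level of the 20 genes was 1403 to 1555 CPM in knockouts and 1239 to 1345 CPM in controls, without overlap. Neuron markers lay lower in the same libraries: 19 of 20 had lower estimates and 1 a higher one, with a median of -0.77. In edgeR 17 were lower at an unadjusted p under 0.05, where 7.23% of all genes were, and 0 passed the adjusted threshold. The 20 neuron markers summed to 2461 to 3083 CPM in knockouts and 4391 to 5556 CPM in controls, without overlap. Their part in the Foxm1 and mitotic differences was not tested.

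**Figure D3:**
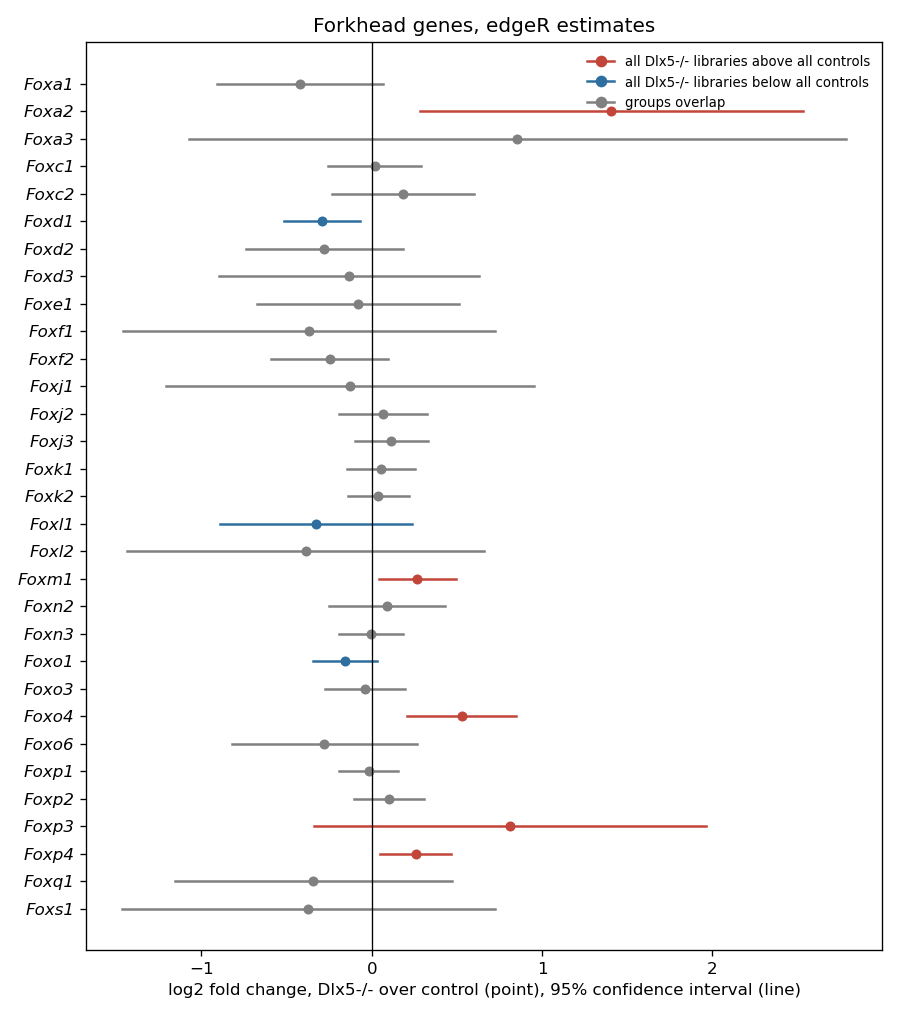
Log2 fold change of knockout over control (points) with its 95% confidence interval (lines) for the 31 kept forkhead genes, from edgeR. Red and blue mark members whose knockout libraries all lie above or all below the controls, and grey marks overlap; the estimate of Foxa2 is the farthest from 0, at 1.41, with an interval of 0.28 to 2.53.

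The Foxd genes pattern mesenchyme and neural crest. Foxd1, a gene of kidney stroma, retina and facial mesenchyme, measured 40.6, 35.7 and 35.2 CPM in knockouts and 48.4, 45.7 and 42.0 CPM in controls. All knockout libraries lay below all controls. The estimate on the log2 scale was -0.29 (SE 0.10, interval -0.51 to -0.07) with an adjusted p of 0.247 in edgeR, and it ran from -0.36 to -0.24 over libraries left out. Foxd1 lies on chromosome 13 from 98354242 to 98359305. Foxd2 had a similar estimate (-0.28, SE 0.20) with groups that overlapped, and the neural crest specifier Foxd3 had one of -0.13 (SE 0.33). Per length, the Foxd sum was 13.4 ± 1.00 CPM per kb in knockouts and 16.1 ± 1.47 CPM per kb in controls (SD, n = 3 each), with overlap between knockout replicate 1 and control replicate 3. Of the 22 palatal mesenchyme markers 8 had higher and 14 lower estimates, with a median of -0.20. In edgeR 5 were higher and 4 lower at an unadjusted p under 0.05, where 5.6% of all genes were higher and 7.23% lower. Of these markers 0 passed the adjusted threshold, and the part of mesenchyme in the Foxd and Foxf values was not tested.

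Foxf1 and Foxf2 act in mesenchyme beside Hedgehog-producing epithelium. Foxf2 measured 30.9, 23.4 and 26.5 CPM in knockouts and 27.3, 30.9 and 38.0 CPM in controls (log2 fold change -0.25, SE 0.15; adjusted p = 0.549, edgeR). Foxf1 measured 5.57, 4.56 and 10.3 CPM in knockouts and 3.89, 8.28 and 14.8 CPM in controls, so it varied by more within each group than between them. Foxf1 was lower than Foxf2 in every library on the scale of CPM per kb, at 2.82 ± 1.26 against 11.4 ± 1.60 in knockouts and 3.72 ± 2.27 against 13.6 ± 2.29 in controls.

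Hedgehog pathway genes act upstream of Foxd and Foxf genes in facial mesenchyme. Of 15, 9 had higher and 6 lower estimates, with a median of 0.13, and 0 passed the adjusted threshold. The co-receptors Cdon and Gas1 had estimates of 0.88 and 0.75 (adjusted p = 0.0527 and 0.0724, edgeR). The feedback inhibitor Hhip, a direct target, measured 18.0 ± 3.99 CPM in knockouts and 24.2 ± 0.507 CPM in controls (-0.44; adjusted p = 0.320, edgeR). Ptch1, the receptor and another direct target, had an estimate of -0.29 (adjusted p = 0.359, edgeR), of the same sign as Foxd1 and Foxf2.

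Foxc1, a regulator of the eye, skull and vessels, measured 128, 120 and 92.9 CPM in knockouts and 115, 108 and 112 CPM in controls, a log2 fold change of 0.02 (interval -0.26 to 0.29). Foxc2, a regulator of lymphatic vessels and of the axial skeleton, had one of 0.18 (interval -0.23 to 0.60). Both had their lowest knockout level in replicate 3.

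Several Fox genes of mesenchyme sit in 2 clusters. Foxq1, Foxf2 and Foxc1 lie within 256 kb on chromosome 13 (31556134 to 31812476, GRCm38), and Foxf1, Foxc2 and Foxl1 within 46.3 kb on chromosome 8 (121084386 to 121130644). In neither cluster did the neighbours share a difference that passed: the estimates were -0.34, -0.25 and 0.02 for Foxq1, Foxf2 and Foxc1, and -0.37, 0.18 and -0.33 for Foxf1, Foxc2 and Foxl1. Foxl1, a gene of gut mesenchyme, measured 4.26, 3.80 and 3.47 CPM in knockouts and 5.72, 4.38 and 4.31 CPM in controls. Its libraries did not overlap, the nearest being 4.264 CPM in a knockout and 4.312 CPM in a control, and its unadjusted p was 0.220 (adjusted p = 0.637, edgeR). Foxq1, known from hair in mice, measured 3.32, 2.50 and 3.40 CPM in knockouts and 5.29, 2.35 and 4.17 CPM in controls, with overlap. It shares 3200 exon bases with A530084C06Rik on the opposite strand, so its reads are uncertain.

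The epithelial members Foxe1 and Foxa1 were low. Foxe1, a gene of thyroid and palate epithelium, measured 4.501, 3.478 and 3.999 CPM in knockouts and 3.347, 4.708 and 4.600 CPM in controls, with groups that overlapped (log2 fold change -0.08; 95% confidence interval -0.68 to 0.51). Foxa1, a factor of endoderm and of oral and airway epithelium, measured 5.45, 5.76 and 7.997 CPM in knockouts and 7.99, 9.25 and 8.62 CPM in controls (-0.42, SE 0.21; adjusted p = 0.459, edgeR). Its overlap came from knockout replicate 3, which lay level with the lowest control (7.989 CPM). Among oral epithelium markers 7 of 20 had higher and 13 lower estimates, with a median of -0.13 and sums of 401 to 498 CPM in knockouts and 441 to 704.5 CPM in controls; their part in the Foxa1 estimate was not tested.

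Foxa2, a factor of endoderm and floor plate, had 11, 20 and 51 estimated counts in knockouts and 8, 10 and 8 in controls, or 1.30, 2.17 and 3.85 CPM in knockouts and 0.864, 0.812 and 1.15 CPM in controls. Every knockout library was above every control, with knockout replicate 3 the highest. The estimate on the log2 scale was 1.41 (SE 0.49, adjusted p = 0.275 in edgeR), and without knockout replicate 3 it was 0.90. The mature brain sum was also highest in knockout replicate 3, and its part in the Foxa2 difference was not tested. The floor plate genes Ferd3l, Nkx2-2 and Nkx2-9 were at or near 0 in all libraries, and Shh had an estimate of 0.02. Foxa3, of liver and gut, had 3 estimated counts in knockout replicate 3 and 20 and 19 in the other knockouts, against 14, 5 and 4 in controls.

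**Figure D4:**
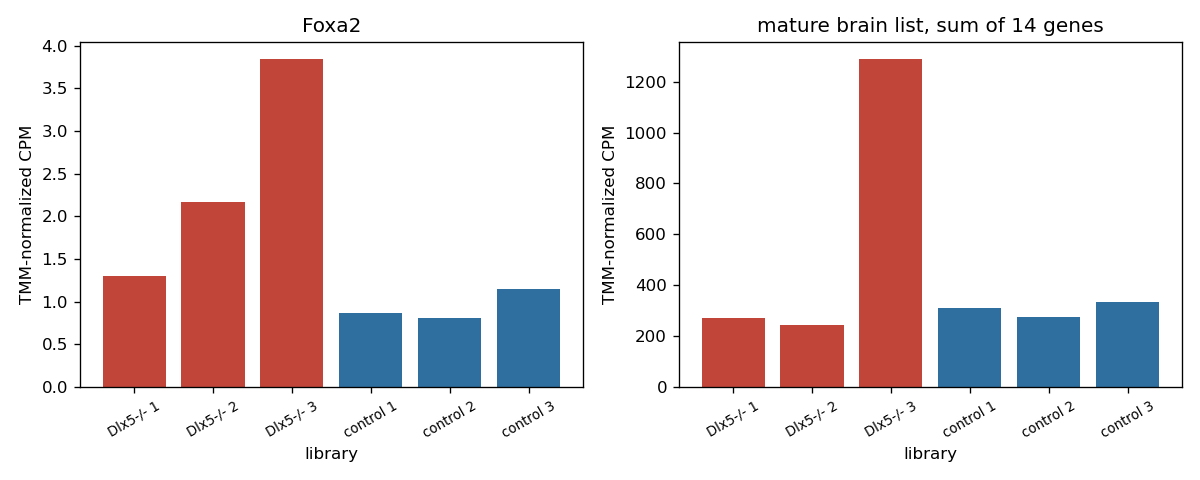
Foxa2 and the sum of the mature brain list in TMM-normalized CPM in each library, knockouts left of controls, each panel with its own axis from 0. Both are highest in knockout replicate 3, where the mature brain sum is 1290 CPM, while Foxa2 in the other knockouts is 1.30 and 2.17 CPM, above its highest control of 1.15 CPM.

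The remaining kept members had small estimates or wide spreads. Foxk1 and Foxk2, nuclear factors found in most cells that repress autophagy genes, had log2 fold changes of 0.05 (interval -0.15 to 0.25) and 0.04 (interval -0.14 to 0.22). Foxk2 measured 71.5, 79.1 and 75.7 CPM in knockouts and 77.2, 71.8 and 71.3 CPM in controls. Foxj2 measured 32.6, 39.8 and 36.7 CPM in knockouts and 32.8, 32.7 and 38.96 CPM in controls, and Foxn3, a suppressor of checkpoint defects in yeast, 60.6, 68.1 and 60.4 CPM in knockouts and 62.5, 65.3 and 61.96 CPM in controls. The groups of all 3 genes overlapped. Log2 fold changes were 0.07 for Foxj2, 0.11 for Foxj3, 0.09 for Foxn2 and -0.01 for Foxn3. Foxj1 measured 9.47, 5.43 and 2.26 CPM in knockouts and 7.56, 4.38 and 6.61 CPM in controls, a wide spread with overlap. Of 24 written motile cilia genes 12 were kept, 5 with higher and 7 with lower estimates and 0 past the adjusted threshold; Ccdc113 and Spag6l averaged under 1 CPM in one of the groups. The 22 cilia genes with a row in the deposited table, kept or not, summed to 65.4 to 89.1 CPM in knockouts and 66.7 to 85.5 CPM in controls.

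Foxl2, a factor of ovary and of pituitary cells, had 14, 12 and 10 estimated counts in knockouts and 13, 16 and 15 in controls (log2 fold change -0.39, SE 0.46; adjusted p = 0.786, edgeR). Pituitary markers lay lower beside it: 10 of 10 kept had lower estimates, with a median of -1.72. In edgeR 8 were under an unadjusted p of 0.05, where 7.23% of all genes were lower, and 0 passed the adjusted threshold. All 15 pituitary genes listed, kept or not, summed to 52.8 to 97.6 CPM in knockouts and 138 to 231 CPM in controls. Lhx4, Tbx19 and Tshb averaged under 1 CPM in knockouts and passed the filter through their control level alone. Without them 7 of 7 had lower estimates, 5 of these under an unadjusted p of 0.05 in edgeR, with a median of -1.71. The Foxl2 libraries overlapped. Foxs1, a gene of pericytes and of sensory neurons, had 9, 8 and 18 estimated counts in knockouts and 7, 24 and 11 in controls.

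**Figure D5:**
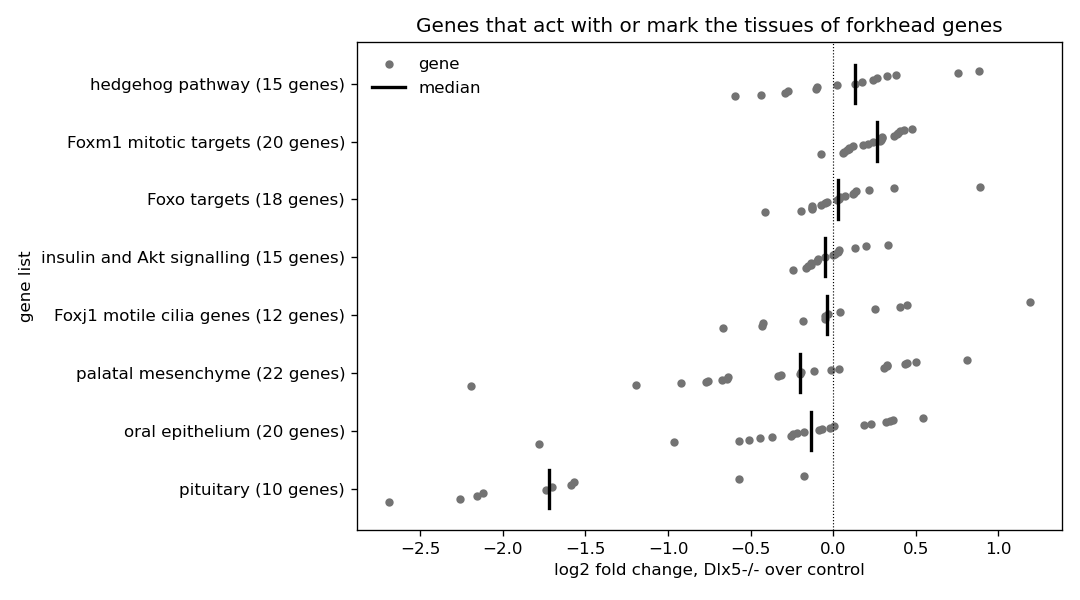
Log2 fold change of each kept gene (points) and the median (bar) for 8 lists of genes that act with forkhead proteins or mark the tissues where they are found. The mitotic list lies mostly right of 0 with a median of 0.26, the pituitary list lies left of 0 with a median of -1.72, and the Foxo, Akt and cilia lists centre near 0.

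The 12 members under the filter were Foxb1, Foxb2, Foxd4, Foxe3, Foxh1, Foxi1, Foxi2, Foxi3, Foxn1, Foxn4, Foxr1 and Foxr2. Foxe3, the lens factor, had 0 counts in every library, and a count of 0 allows up to 3 counts per library. Foxi2 had 11 counts in knockout replicate 3 and 0 in the other libraries, and Foxb2 had 7 there, 0 in the other knockouts and 0, 0 and 1 in controls. Both were thus seen mainly in the library with the highest mature brain sum. The nodal effector Foxh1 had 7 counts over all knockouts and 2 over all controls, the thymus factor Foxn1 had 1 and 5, and the ear and tooth gene Foxi3 had 3 and 5. None of these counts can carry a comparison at this depth.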

How the data were processed

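The deposited table held estimated counts per gene and library for mouse soft palate at E14.5; its columns sum to different totals. STAR 2.4.1d, Partek and build mm10 are named in the submitters' processing notes. How genes were annotated and counted, and whether strand was used, is not given in the sources used here. Of values above 0.5, 64.5% were whole within 0.001. Reads shared by similar genes can be divided. The table has 1 more column, which fits no label and was left out.

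Estimated counts were rounded, genes averaging at least 1 CPM were kept, and knockouts were compared with controls by edgeR 4.0.16 (R 4.3.3) with TMM factors. Standard errors came from the F statistic. The fit was tested on simulated data. Alternatives were other normalizations and filters, limma 3.58.1, DESeq2 1.42.0, a replicate block and leaving out each library. Of the rows matching the rule 1 is not reported here; it stayed in the fits and in the counts over all genes, and is left out of every count, sum and median over forkhead genes. Members and gene lists were chosen with earlier results of these data known. Lists are described by counts and medians, without a test. Values per library are given for members with non-overlapping groups or an unadjusted p under 0.05, and for the most abundant per length of each subfamily; further members given per library (Foxa3, Foxb2, Foxe3, Foxf1, Foxi2, Foxj1 and Foxl2) and marker genes outside the 4 smallest p of a list were chosen after their values were seen. Exon lengths and coordinates are from GENCODE M21 (GRCm38, also called mm10). Figures were drawn with matplotlib 3.10.9.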

Additional observations from a re-analysis of the deposited data

How the results depend on the processing

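No forkhead gene described here passed under the main test or under 15 of 16 alternatives. With no filter 1 of 42 tested members passed, Foxo4, higher in knockouts (log2 fold change 0.54, adjusted p = 0.0176, edgeR). That fit tested 29870 genes and called 679 of them, with spread estimates drawn from many rows with few counts. The 8 members with non-overlapping groups or an unadjusted p under 0.05 were Foxa2, Foxd1, Foxl1, Foxm1, Foxo1, Foxo4, Foxp3 and Foxp4. These kept their direction in every alternative that gave a value. All 8 had groups without overlap, so leaving out 1 library could hardly reverse them. Of the 31 kept members, 5 had an unadjusted p under 0.05 in the main edgeR test. That number was 2 with library totals in place of TMM or without control replicate 2, and 3 without control replicate 3. The median over members stayed between -0.06 and 0.03.

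The number of all genes called moved more. The count was 1 in the main test, 41 with library totals in place of TMM, 74 with a filter of 5 CPM, 94 and 97 with limma-trend at a pseudocount of 0.25 and 1, 299 at a threshold of 0.1 and 497 with DESeq2. With 1 library left out it ran from 0 (without knockout replicate 1 or 2, or without control replicate 3) to 164 (without knockout replicate 3). The labels do not say whether the replicate numbers pair the libraries. Deviations of same-numbered knockouts and controls correlated at -0.01, -0.01 and 0.02, and those of other pairs at -0.05 to 0.06. With 3 libraries per group these values cannot decide whether the libraries are paired. With a replicate block 0 of all genes and 0 of these forkhead genes passed. Low counts limit Foxa2, Foxa3, Foxl2, Foxp3 and Foxs1.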
